A study of Homo sapiens with 30 samples.

Results

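The metallothioneins and the genes of zinc export and zinc sensing were followed in nanoparticle-exposed THP-1, a standard cell line grown from a human acute monocytic leukaemia. The 9 members, MT1E, MT1F, MT1G, MT1H, MT1M, MT1X, MT2A, SLC30A1 and MTF1, were chosen by name. They comprised every probe set that the platform annotation assigns to 1 of these symbols and to no other gene, which gave 14 of the 22277 probe sets on the array. Of these 14, 12 read above the 25th percentile of all probe sets on 3 arrays or more and were kept, and they represented 8 of the 10050 genes tested. MT1M was the member without a kept probe set, and it is described separately.

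Metallothioneins are small, cysteine-rich proteins that bind zinc and copper and also take up toxic metals such as cadmium. SLC30A1 (ZnT1) is the zinc exporter of the plasma membrane. MTF1 is a zinc-sensing transcription factor that binds metal response elements and turns on the metallothioneins and SLC30A1 when free zinc rises, and metallothioneins also respond to glucocorticoids and oxidants. In macrophages the pathway is known for limiting zinc during infection and metal stress.

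All cells had first been differentiated into adherent macrophage-like cells with 82 nM phorbol 12-myristate 13-acetate (PMA) for 24 h, controls included. They were then replated and left unexposed, or given 1 of 2 materials, MWCNT (multi-walled carbon nanotubes) or TiO2-NB (nanobelts of titanium dioxide), at 10 or 100 µg/ml, and harvested after 1 or 24 h. This gave 10 groups of 3 arrays, described by the labels as biological replicates, so the tests measure the spread between these cultures of a single leukaemia line. In bulk RNA, fewer cells of a type and less RNA per cell cannot be told apart.

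The arrays were alike: array medians lay between 6.35 and 6.46 on the log2 scale, and the lowest correlation over all probe sets was 0.979 between any 2 arrays and 0.994 within a group. All 9 of the macrophage and monocyte markers that could be read lay above the array median, from CD14 at 7.18 to TYROBP at 12.97, whereas 0 of 5 T cell, 0 of 3 B cell and 0 of 5 epithelial markers did. Of 5 neutrophil granule markers 4 were above the array median (AZU1 11.64) and MPO was not (4.86). Of the fibroblast markers 2 of 6 were (COL1A1 7.97), and of the endothelial markers 2 of 4 (PECAM1, which monocytes also carry, 11.44).

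The metallothionein members are neighbours on chromosome 16, in the order MT2A, MT1E, MT1M, MT1F, MT1G, MT1H and MT1X, and SLC30A1 and MTF1 lie on chromosome 1. RefSeq's promoter table (GRCh38.p14) held 5 of the 9 members. In the 250 bases before each gene's start, the core of the metal response element was searched on both strands as TGCACNC and TGCGCNC. The sequences are shown because this element is what MTF1 is known to read. Capitals mark the matches, and a match on the opposite strand appears as its reverse complement.
MT2A: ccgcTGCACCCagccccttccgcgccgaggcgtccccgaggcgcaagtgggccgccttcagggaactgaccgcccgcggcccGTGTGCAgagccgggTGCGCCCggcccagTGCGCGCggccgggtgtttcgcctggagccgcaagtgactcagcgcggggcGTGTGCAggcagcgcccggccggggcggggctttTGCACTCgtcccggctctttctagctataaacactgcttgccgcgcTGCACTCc
MT1X: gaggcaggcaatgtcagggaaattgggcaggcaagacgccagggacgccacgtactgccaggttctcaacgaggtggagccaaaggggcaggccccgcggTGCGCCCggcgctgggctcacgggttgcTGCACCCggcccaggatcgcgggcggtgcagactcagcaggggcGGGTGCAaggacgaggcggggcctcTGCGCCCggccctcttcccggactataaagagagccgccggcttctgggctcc
MT1H: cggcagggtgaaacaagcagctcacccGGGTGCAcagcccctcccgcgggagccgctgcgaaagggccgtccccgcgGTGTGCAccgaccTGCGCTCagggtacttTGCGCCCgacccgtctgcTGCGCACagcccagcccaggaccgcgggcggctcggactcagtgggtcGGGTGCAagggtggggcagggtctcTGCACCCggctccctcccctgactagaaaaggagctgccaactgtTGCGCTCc
SLC30A1: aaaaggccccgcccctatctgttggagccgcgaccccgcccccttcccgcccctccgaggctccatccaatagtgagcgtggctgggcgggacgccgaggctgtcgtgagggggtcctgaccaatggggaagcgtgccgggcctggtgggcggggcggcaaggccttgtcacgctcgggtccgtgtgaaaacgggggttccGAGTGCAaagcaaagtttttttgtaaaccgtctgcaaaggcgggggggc
These stretches lie at chr16:56608334-56608583 (MT2A, plus strand), chr16:56682220-56682469 (MT1X, plus strand), chr16:56669564-56669813 (MT1H, plus strand) and chr1:211579162-211579411 (SLC30A1, minus strand). MT1H held 8 matches, MT2A 7, MT1X 4, SLC30A1 1 and MTF1 0. Among all 35116 promoters of the table, 24.8% held at least 1 match, 0.37% at least 4, 0.0313% at least 7 and 0.0171% at least 8. The TGCACNC form was found in 9.87% of promoters and the TGCGCNC form in 16.8%. MT1X and MT1H shared 2 match positions, at 78 to 72 and at 53 to 47 bases before the start. The SLC30A1 match lay 49 to 43 bases before the start. Such matches describe the letters and were not tested as binding sites.

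How well the array separates these genes limits every value that follows. Of the 11 metallothionein probe sets, 9 carry the x_at suffix, which Affymetrix gives to probe sets whose probes can also bind related transcripts, so the metallothionein values may partly measure one another. One of them, 204326_x_at, is assigned to MT1X by the platform annotation although its listed accession belongs in RefSeq to MT1L, a transcribed metallothionein pseudogene. MT1M (217546_at) had a mean level of 2.97 and exceeded the 25th percentile on 0 of 30 arrays. Its arrays ranged from 2.69 to 3.17 at 1 h and from 2.66 to 3.16 at 24 h, so the times overlapped throughout. When dim probe sets were left in, its largest difference in any of the 21 comparisons was 0.31 log2 units in size, with a lowest adjusted p of 0.1667 by limma. The second MT1G probe set (210472_at, mean 4.33) was likewise above the 25th percentile on 0 of 30 arrays.

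In unexposed cells SLC30A1 and 5 of the 6 tested metallothioneins were called lower at 24 h than at 1 h. MTF1, the factor known to drive them, was higher at 24 h on both of its probe sets and called on 1 of the 2. By limma with Benjamini-Hochberg adjustment over all genes, 6 of the 8 tested members were called lower at 24 h and 1 higher, at an adjusted p under 0.05. The background was high, because 36.9% of all genes were called in this comparison, 16.1% lower and 20.8% higher. The median difference was -0.49 log2 units over the members and 0.03 over all genes. Both groups were unexposed, so the comparison describes harvest at 24 h against harvest at 1 h and not an effect of particles. Culture time, time since PMA and replating, and any batch that differed by harvest time cannot be told apart here.

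SLC30A1 changed most among the members. Its control arrays read 10.30, 10.21 and 10.25 at 1 h, and 8.88, 9.03 and 9.19 at 24 h. The 24 h arrays were all more than a log2 unit below the 1 h arrays. The difference was -1.22 ± 0.18 (SE), or 2.33-fold lower at 24 h (limma, adjusted p = 6.677e-06). The exporter's separation by time held across all exposures: the 15 arrays of 1 h lay between 10.01 and 10.42 and the 15 arrays of 24 h between 7.81 and 9.51. How many of all genes separate by time over all exposures was not counted, here or for MT1E and MTF1 below. Between the 2 control groups alone, 45.0% of all genes did not overlap.

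MT1E, a metallothionein of the MT1 cluster, read 8.41, 8.28 and 8.13 in 1 h controls and 7.84, 7.38 and 7.60 in 24 h controls. All 24 h arrays were below all 1 h arrays, and the difference was -0.67 ± 0.11 (adjusted p = 2.437e-05). Over all exposures its 15 arrays of 1 h (8.06 to 8.55) and 15 arrays of 24 h (7.38 to 7.84) did not overlap either. The second MT1E probe set (216336_x_at) gave a smaller difference, -0.35 ± 0.12 (adjusted p = 0.02543 over all kept probe sets).

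MT1X, also of the MT1 cluster, stood at 7.88, 7.53 and 7.58 in 1 h controls and at 7.05, 6.82 and 7.16 in 24 h controls. Again every 24 h control was below every 1 h control. MT1X fell by 0.65 ± 0.16 (difference -0.65, adjusted p = 0.002158), and the probe set with the MT1L accession fell by 0.80 ± 0.19 (difference -0.80, adjusted p = 0.001664).

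MT1F read 8.19, 7.87 and 7.82 at 1 h and 7.52, 7.26 and 7.39 at 24 h, with no overlap. Its difference was -0.57 ± 0.12 (adjusted p = 0.0004384), and that of its other probe set (213629_x_at) was -0.95 ± 0.17 (adjusted p = 7.184e-05). The size of the MT1F decline therefore depended on the probe set, and its direction did not.

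MT1H read 8.43, 8.29 and 8.16 at 1 h and 8.05, 7.74 and 7.84 at 24 h, a difference of -0.42 ± 0.10 (adjusted p = 0.001122) without overlap. MT2A, the most widely expressed metallothionein, read 8.94, 8.72 and 8.59 at 1 h and 8.54, 8.22 and 8.44 at 24 h. MT2A was thus lower on all 24 h controls, by a small margin, with a difference of -0.35 ± 0.11 (adjusted p = 0.01189). The MT2A call was lost without 1 h control replicate 1 (-0.26, adjusted p = 0.09546), without 24 h control replicate 2 (-0.26, adjusted p = 0.08827) and when only the control arrays were fitted (adjusted p = 0.05885).

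MT1G did not pass the test. It read 7.70, 7.49 and 7.41 at 1 h and 7.49, 7.08 and 7.25 at 24 h. The highest 24 h control overlapped the 1 h controls, and the difference was -0.26 ± 0.12 (adjusted p = 0.09788). MT1G did pass without 24 h control replicate 1 (-0.37, adjusted p = 0.03073). In all 17 alternatives the 6 metallothioneins and SLC30A1 kept a negative difference.

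MTF1 went the other way. Its probe set 205323_s_at read 7.82, 7.39 and 7.91 in 1 h controls and 8.58, 8.56 and 8.42 in 24 h controls. The 24 h controls were all higher, by 0.81 ± 0.19 or 1.76-fold (adjusted p = 0.001095). Over all exposures the 15 arrays of 1 h (7.21 to 8.26) lay below the 15 arrays of 24 h (8.32 to 8.92). The other MTF1 probe set (205322_s_at) rose less and was not called, with a difference of 0.33 ± 0.17 (adjusted p = 0.1405). Between the 2 control groups, 7 of the 8 members had arrays that did not overlap (all but MT1G), as did 45.0% of all genes tested.

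**Figure D1:**
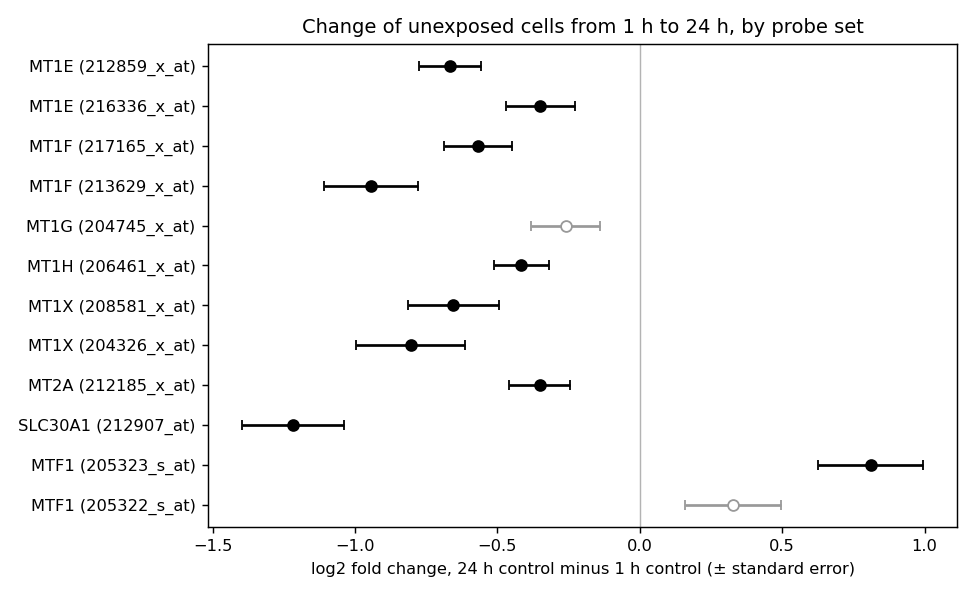
Difference between 24 h and 1 h unexposed cells for each kept probe set of the members, in log2 units (horizontal axis). Points are limma estimates with bars of ± 1 standard error, and filled points passed an adjusted p of 0.05. All 9 metallothionein probe sets and SLC30A1 (-1.22) lie to the left of 0, and both MTF1 probe sets lie to the right.

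Metallothionein levels in exposed cells lay close to those of the controls. None of the 48 metallothionein tests against a control of the same time was called by limma, and 1 of them had an unadjusted p under 0.05. These 48 differences ran from -0.19 to 0.36 log2 units. Over all 8 tested members, 1 of 64 such tests was called: SLC30A1 at 100 µg/ml TiO2-NB and 24 h. Of all genes, 13.0% were called with 100 µg/ml MWCNT and 22.1% with 100 µg/ml TiO2-NB at 24 h. Each of the other comparisons with control called 1.15% of all genes or less, so most of these tests stood where almost no gene was called.

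After 1 h the comparison had little to find. With MWCNT, 0% of all genes were called at either dose, with 10 µg/ml TiO2-NB 0%, and with 100 µg/ml TiO2-NB 1.15%. In each of these 4 comparisons 0 of 8 members was called and 0 had an unadjusted p under 0.05. The metallothionein differences with 100 µg/ml TiO2-NB lay between -0.19 (MT1G) and 0.00 (MT1X, -0.005 before rounding), and the widest 95% intervals reached from -0.44 to 0.33. With 100 µg/ml MWCNT they lay between -0.16 (MT1E) and 0.00 (MT1G, -0.004). An F test of any exposure at 1 h called 0 of 8 members and 0.866% of all genes. SLC30A1 at 100 µg/ml MWCNT read 10.12, 10.02 and 10.01, below all 1 h controls, with a difference of -0.20 ± 0.18 (adjusted p = 0.9998). It was the only member whose arrays did not overlap those of the control there, as was so for 6.40% of all genes.

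At 10 µg/ml and 24 h neither material moved a member past the test, where 0% of all genes were called with MWCNT and 0.0199% with TiO2-NB. The unadjusted p was under 0.05 for 0 of 8 members with both. The metallothionein differences ran from -0.16 (MT1G) to 0.08 (MT1X) with MWCNT and from -0.06 (MT2A) to 0.16 (MT1H) with TiO2-NB. The 95% intervals of these tests reached at most 1.33-fold up or down with MWCNT and 1.28-fold with TiO2-NB.

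At 100 µg/ml and 24 h, SLC30A1 was lower in TiO2-NB-exposed cells than in controls, and the metallothioneins were near control. SLC30A1 read 8.64, 7.81 and 8.03, against 8.88, 9.03 and 9.19 in controls. All 3 exposed arrays were below all 3 controls, although replicate 1 lay much closer to them than replicates 2 and 3. The difference was -0.87 ± 0.18 (95% interval -1.24 to -0.50), a 1.83-fold lower level (limma, adjusted p = 0.000862). Of all genes tested, 22.1% were called in this comparison (11.1% of all genes lower and 10.9% higher), and 33.3% had arrays that did not overlap. The call held in 17 of 17 alternatives, with differences from -1.11 to -0.70.

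The metallothionein differences in the same cells ran from -0.09 (MT2A) to 0.11 (MT1G), with adjusted p values of 0.5731 or more. MT2A read 8.43, 8.35 and 8.14, against 8.54, 8.22 and 8.44 in controls, and the groups overlapped. MT1X read 7.13, 6.92 and 6.72, against 7.05, 6.82 and 7.16, and also overlapped. The widest 95% intervals of the 6 genes allowed a rise of up to 1.28-fold (MT1G) or a fall of up to 1.34-fold (MT1X).

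MTF1 read 8.51, 8.90 and 8.81 with 100 µg/ml TiO2-NB, against 8.58, 8.56 and 8.42 in 24 h controls. Replicates 2 and 3 were above the controls and replicate 1 among them. The difference was 0.22 ± 0.19 (adjusted p = 0.4476), while the other MTF1 probe set gave -0.25 ± 0.17 (adjusted p = 0.3261). The 2 probe sets thus had opposite signs and neither passed the test.

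The SLC30A1 difference was seen at the high dose and the late time. At 10 µg/ml TiO2-NB and 24 h the arrays read 8.77, 8.79 and 9.25, which overlapped the controls (difference -0.10 ± 0.18). The direct comparison of 100 with 10 µg/ml gave -0.78 ± 0.18 (adjusted p = 0.004186), where 13.5% of all genes were called, 6.10% lower. This call was lost when only these 2 groups were fitted (adjusted p = 0.07922). MT1H (-0.12, adjusted p = 0.5004) and SLC30A1 were the members without overlap between these doses, as were 28.6% of all genes. At 1 h, 100 µg/ml TiO2-NB left SLC30A1 at 10.34, 10.21 and 10.26, a difference from control of 0.02 ± 0.18. The test of the 24 h response against the 1 h response gave -0.89 ± 0.25 (adjusted p = 0.01829), in a comparison that called 16.3% of all genes and 8.85% lower. It was lost without replicate 2 of 100 µg/ml TiO2-NB at 24 h (-0.72, adjusted p = 0.05921). An F test of any exposure at 24 h called SLC30A1 alone among the 8 members (F = 9.16, adjusted p = 0.001365), beside 29.2% of all genes.

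With 100 µg/ml MWCNT at 24 h none of the 8 members was called, while 13.0% of all genes were (8.99% higher and 4.04% lower), and MT1X alone had an unadjusted p under 0.05. The 6 metallothionein differences were all above 0, from 0.04 (MT1F) to 0.36 (MT1X), with a median of 0.15 against -0.01 over all genes. MT1X read 7.67, 7.17 and 7.28, all above the controls at 7.05, 6.82 and 7.16. Its difference was 0.36 ± 0.16 (adjusted p = 0.1498), and that of the probe set with the MT1L accession was 0.49 ± 0.19 (adjusted p = 0.1028). MT2A read 8.58, 8.68 and 8.59, also all above the controls at 8.54, 8.22 and 8.44, with a difference of 0.22 ± 0.11 (adjusted p = 0.2065). MT1X and MT2A were the only members whose arrays did not overlap those of the control, as was so for 30% of all genes. The intervals allowed a rise of up to 1.62-fold (MT1X). The MT1F difference, the smallest, turned to -0.03 without 24 h control replicate 2 and to 0.00 (-0.001) without MWCNT replicate 2.

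SLC30A1 with 100 µg/ml MWCNT read 9.51, 8.71 and 8.72. Replicate 1 was above all controls and replicates 2 and 3 below all of them, so the mean difference of -0.05 ± 0.18 (adjusted p = 0.8943) averaged over opposite positions. Without replicate 1 it was -0.32 ± 0.16 (adjusted p = 0.254). MTF1 read 8.48, 8.92 and 8.88, with a difference of 0.24 ± 0.19 (adjusted p = 0.4544). At 100 µg/ml and 24 h, replicate 1 of both materials was thus the highest for SLC30A1 and the lowest for MTF1. Whether those cultures shared a day or a batch is not given in the labels.

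**Figure D2:**
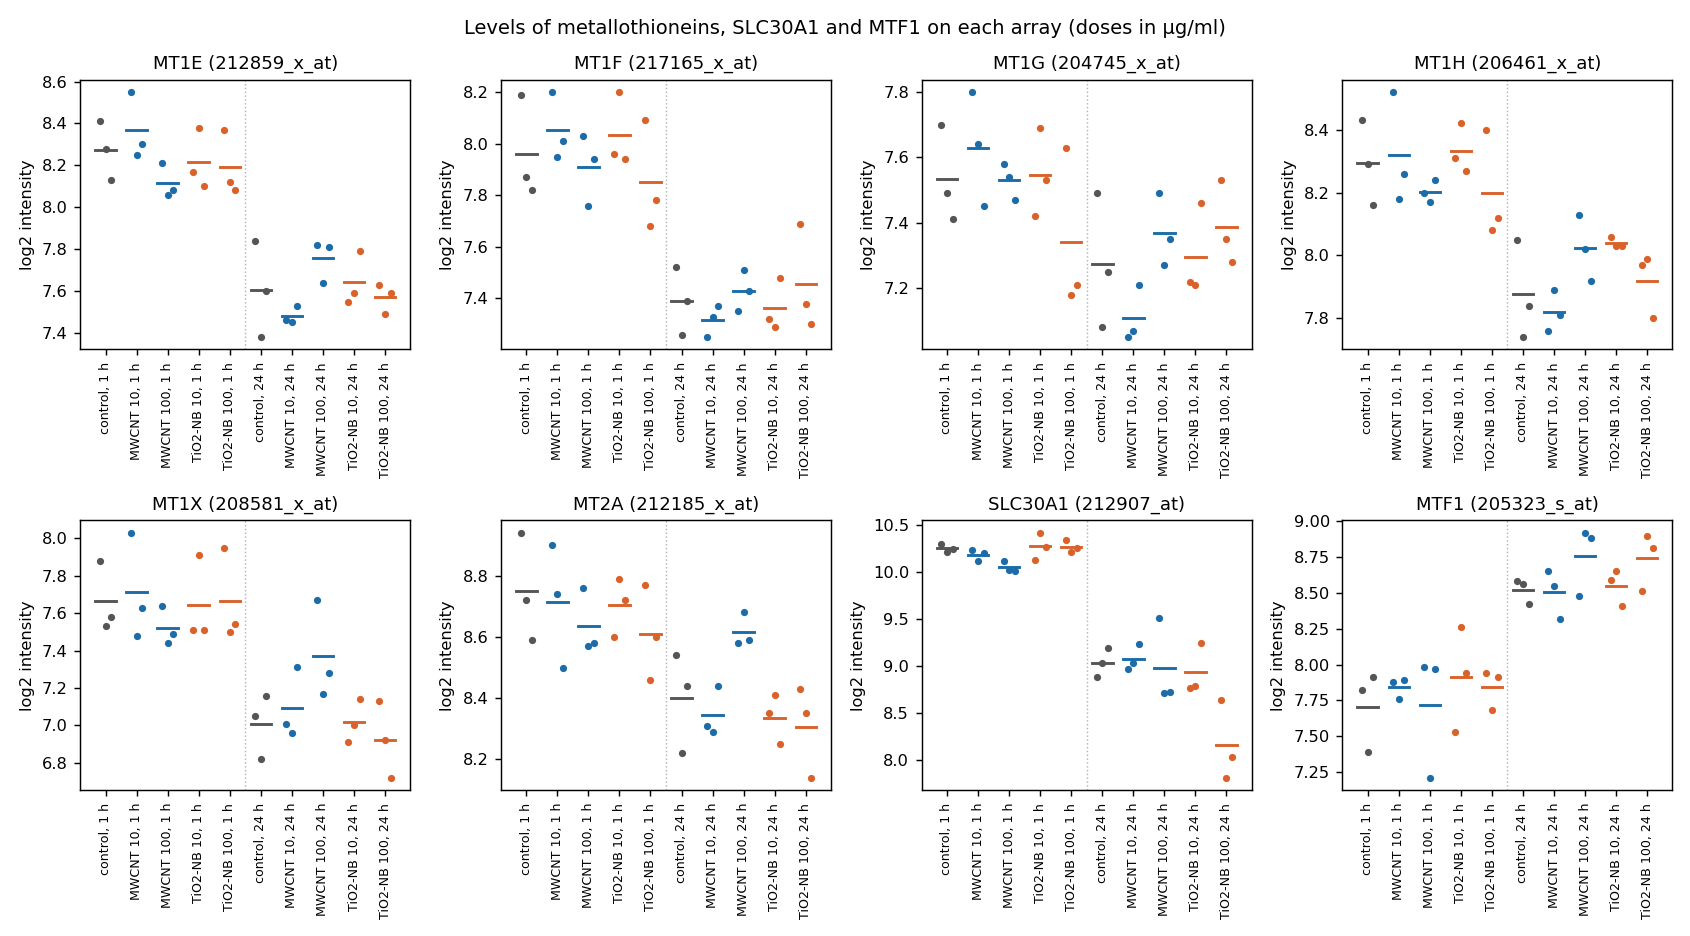
Level of each tested member on each of the 30 arrays, in log2 intensity (vertical axis, a separate scale for each gene), by group (horizontal axis, doses in µg/ml). Points are single arrays in replicate order, bars are means of 3 arrays, and the dotted line separates 1 h from 24 h. SLC30A1 drops from 10.25 in 1 h controls to 9.03 in 24 h controls and to 8.16 with 100 µg/ml TiO2-NB at 24 h, while MTF1 is higher at 24 h in every group.

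Ordered by mean level, the 5 groups of 1 h stood above the 5 groups of 24 h for SLC30A1, MT1E, MT1F, MT1H and MT1X, and the reverse held for MTF1. The share of all genes with such an order was not counted. For SLC30A1 the order ran from 10.28 (10 µg/ml TiO2-NB, 1 h) to 8.16 (100 µg/ml TiO2-NB, 24 h). Neighbours in that order overlapped except at 3 steps: between 10 and 100 µg/ml MWCNT at 1 h (10.19 and 10.05), between the lowest 1 h group and the highest 24 h group (10.05 and 9.07), and between 10 and 100 µg/ml TiO2-NB at 24 h (8.94 and 8.16). For MT1E only the step between the times was free of overlap (8.12 and 7.76). MT2A showed no such step: its groups ran from 8.75 in 1 h controls to 8.31 with 100 µg/ml TiO2-NB at 24 h, every neighbouring pair overlapped, and 100 µg/ml MWCNT at 24 h (8.62) stood among the 1 h groups.

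The materials differed from each other at 100 µg/ml and 24 h in 3 of the 8 members, all higher with MWCNT. In this comparison 24.9% of all genes were called, 14.0% higher with MWCNT. SLC30A1 differed by 0.82 ± 0.18 or 1.77-fold (limma, adjusted p = 0.001791), and its 3 MWCNT arrays (9.51, 8.71 and 8.72) were all above its 3 TiO2-NB arrays (8.64, 7.81 and 8.03). In arrays of equal replicate number, which were not taken as pairs, the SLC30A1 difference was 0.87, 0.90 and 0.69. These values describe the same arrays and add no test. The SLC30A1 call was lost when only these 2 groups were fitted (adjusted p = 0.0784).

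MT1X differed by 0.45 ± 0.16 (adjusted p = 0.04154), and the probe set with the MT1L accession by 0.68 ± 0.19 (adjusted p = 0.01198). The MWCNT arrays were above all TiO2-NB arrays for MT1X (lowest 7.17, highest 7.13). The MT1X call was lost after median centring (0.43, adjusted p = 0.05495) and when only these groups were fitted (adjusted p = 0.08206). It was also lost without MWCNT replicate 1 (0.31, adjusted p = 0.2164), MWCNT replicate 3 (adjusted p = 0.05866), TiO2-NB replicate 2 (adjusted p = 0.0935) or TiO2-NB replicate 3 (adjusted p = 0.1707).

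MT2A differed by 0.31 ± 0.11 (adjusted p = 0.03664), again without overlap (lowest MWCNT array 8.58, highest TiO2-NB array 8.43). Its call was lost after median centring (0.29, adjusted p = 0.05029) and cyclic loess (adjusted p = 0.07433), and when only these groups were fitted (adjusted p = 0.0529). It survived leaving out TiO2-NB replicate 1 but no other single array of these groups, with adjusted p values of up to 0.1766 without TiO2-NB replicate 3. MT1E arrays did not overlap either, and its difference of 0.18 was not called (adjusted p = 0.2173). Together 4 of 8 members had arrays that did not overlap here, as did 40.8% of all genes.

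Differences of MT1F, MT1G, MT1H and MTF1 between the materials were -0.03, -0.01, 0.10 and 0.02, none called. The other MTF1 probe set (205322_s_at) gave a larger difference, 0.39 ± 0.17, also not called (limma, adjusted p = 0.09342 over all kept probe sets). At 100 µg/ml and 1 h, 0 of 8 members was called, with 1.42% of all genes, and 0 had an unadjusted p under 0.05. SLC30A1 was lower with MWCNT than with TiO2-NB there without overlap (17.8% of all genes), by -0.22 ± 0.18 (adjusted p = 0.6421). At 10 µg/ml, 0 of 8 members was called at either time, with 0.00995% of all genes at 24 h and 0% at 1 h. At 10 µg/ml and 24 h the MWCNT arrays of MT1E, MT1G and MT1H lay below all TiO2-NB arrays (18.5% of all genes did not overlap). The largest difference was -0.22 for MT1H (adjusted p = 0.4452), the only member there with an unadjusted p under 0.05. The second MT1E probe set (216336_x_at) differed there by 0.07 ± 0.12, with overlapping arrays.

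**Figure D3:**
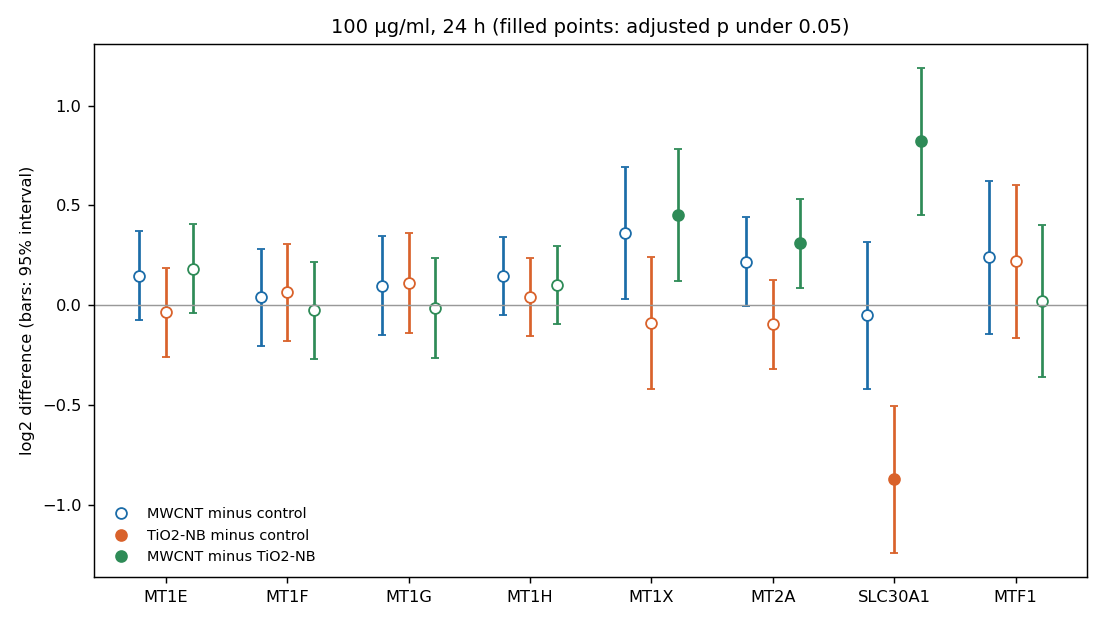
Differences between groups at 100 µg/ml and 24 h for the 8 tested members, in log2 units (vertical axis), with 95% intervals from limma. Colours give the comparison and filled points passed an adjusted p of 0.05. SLC30A1 is the only member called against control (TiO2-NB, -0.87), and MT1X, MT2A and SLC30A1 are called between the materials.

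Between the 2 doses of MWCNT at 24 h none of the members was called, where 4.67% of all genes were. MT1E, MT1G, MT1H and MT2A were higher at 100 than at 10 µg/ml without overlap, and each had an unadjusted p under 0.05. Arrays did not overlap for 25.2% of all genes. Their differences were 0.27, 0.26, 0.20 and 0.27 log2 units, with adjusted p values of 0.1725, 0.269, 0.2867 and 0.1846. With array weights, MT1E (adjusted p = 0.02907) and MT2A (adjusted p = 0.01651) were called. The share of all genes called with array weights is not given here, and the 4.67% belongs to the fit without them. Without weights the second MT1E probe set (216336_x_at) differed by 0.06 ± 0.12 (limma, adjusted p = 0.8806 over all kept probe sets), and its arrays overlapped. At 1 h MT1E and SLC30A1 were lower at 100 than at 10 µg/ml MWCNT on all arrays (5.95% of all genes did not overlap). The differences were -0.25 and -0.14, with adjusted p values of 0.9999. For MT1E this held on 1 of its 2 probe sets: 216336_x_at differed by 0.06 ± 0.12 in the same comparison, and its arrays overlapped. That comparison called 0 of 8 members and 0% of all genes, with 1 member under an unadjusted p of 0.05. The dose comparison of TiO2-NB at 1 h called 0 of 8 members and 0.0796% of all genes, with 0 members under an unadjusted p of 0.05.

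The change in response from 1 to 24 h was called for none of the members with MWCNT at 100 µg/ml (3.71% of all genes), and for none with either material at 10 µg/ml (0% of all genes in both). With 100 µg/ml MWCNT 2 members had an unadjusted p under 0.05, and at 10 µg/ml 0 had. For MT1X that change was 0.50 log2 units with 100 µg/ml MWCNT (adjusted p = 0.2767), and for MT2A 0.33 (adjusted p = 0.2924).

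Other genes of metal handling gave a mixed picture. Of 9 other exporters of the SLC30 family 3 could be tested, and 0 were called with either material at 100 µg/ml and 24 h: SLC30A3, SLC30A5 and SLC30A9 differed from control by 0.23, -0.19 and 0.00 (-0.004) with TiO2-NB. Of 14 zinc importers of the SLC39 family 8 were tested. SLC39A14, an importer of zinc, iron and manganese, was the 1 of 8 called with 100 µg/ml MWCNT (0.68 ± 0.14, adjusted p = 0.001388), a share near the 13.0% of all genes called there. With 100 µg/ml TiO2-NB 0 of 8 were called, against 22.1% of all genes, and SLC39A14 differed by 0.27 (adjusted p = 0.1788). In unexposed cells 4 of the 8 importers rose between 1 and 24 h, where 20.8% of all genes were called higher. SLC39A14 rose by 1.35, SLC39A4 by 0.80, SLC39A9 by 0.47 and SLC39A6 by 0.44. Among the 3 other exporters, SLC30A9 was called higher in that comparison (0.30 ± 0.10, limma, adjusted p = 0.01517), and SLC30A3 and SLC30A5 were not called. Of 5 listed metallothionein genes outside the members 2 were tested, MT3 and MT4, and neither was called in these comparisons. Of all genes, 13.0% were called with MWCNT, 22.1% with TiO2-NB and 36.9% between the control times. The list did not hold the metallothionein-like gene MT1HL1, which was tested and is named below for its correlation only.

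A few copper genes were lower, as SLC30A1 was, with TiO2-NB. Of 10 tested copper-handling genes 3 were lower and 0 higher at 100 µg/ml and 24 h, where 11.1% of all genes were lower and 10.9% higher. ATP7A, a copper-exporting pump, fell by 1.19 ± 0.13 (difference -1.19, adjusted p = 4.761e-07), SLC31A2 by 0.45 (difference -0.45) and the importer SLC31A1 by 0.23 (difference -0.23). The list's median difference was -0.15, against 0.01 over all genes. With MWCNT 1 of 10 was lower (SLC31A2, -0.65) and 0 higher, beside 4.04% and 8.99% of all genes, and ATP7A differed by -0.28 (adjusted p = 0.1845).

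Most tested genes that metals and oxidants also induce rose with TiO2-NB, in the cells whose metallothioneins were near control. Of 11 tested, 7 were higher and 0 lower at 100 µg/ml and 24 h, beside 10.9% and 11.1% of all genes. Their median difference was 0.53, against 0.01 over all genes. SLC7A11, the cystine importer, rose by 1.53 ± 0.25 (adjusted p = 8.551e-05), the stress-response transcription factor ATF3 by 1.35 ± 0.15 (adjusted p = 3.626e-07) and GCLM, a subunit of the enzyme of glutathione synthesis, by 1.04 ± 0.19 (adjusted p = 0.0002933). With MWCNT 2 were higher (GCLM by 0.78, TXNRD1 by 0.28) and 1 lower (NQO1, -0.44), beside 8.99% and 4.04% of all genes. In unexposed cells 7 of the 11 were lower at 24 h than at 1 h and 1 higher, beside 16.1% and 20.8% of all genes.

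Among 9 tested glucocorticoid-inducible genes, 4 were higher and 1 lower with 100 µg/ml TiO2-NB at 24 h, beside 10.9% and 11.1% of all genes. DUSP1, a phosphatase of MAP kinases, rose by 1.04, TSC22D3 (GILZ) by 0.98 and NFKBIA, the NF-kappaB inhibitor, by 0.72, whereas the scavenger receptor CD163 fell by 0.82 (difference -0.82). With MWCNT NFKBIA (0.61) and SGK1 (0.23) were higher and 0 lower, beside 8.99% and 4.04% of all genes. The list's median was 0.34 with TiO2-NB and 0.23 with MWCNT, and the median of the 6 metallothioneins was 0.00 (0.004) and 0.15.

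**Figure D4:**
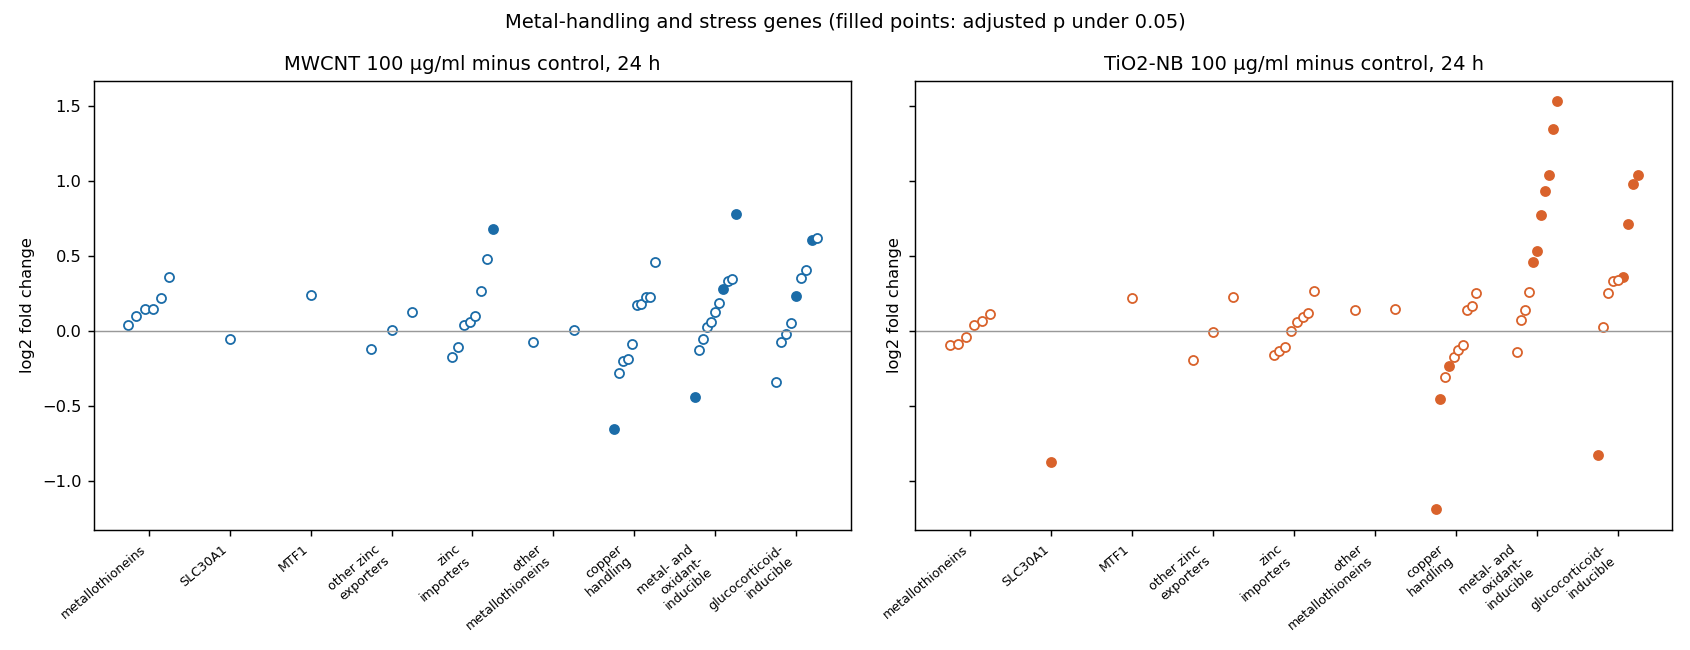
Difference from 24 h controls in log2 units (vertical axis) for each tested gene of the lists named on the horizontal axis, with 100 µg/ml MWCNT (left) and TiO2-NB (right). Each point is a gene, and filled points passed an adjusted p of 0.05. On the right, SLC30A1 (-0.87) and ATP7A (-1.19) are low and 7 of 11 metal- and oxidant-inducible genes are high, while the metallothioneins lie between -0.09 and 0.11.

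The metallothioneins varied together from array to array, and SLC30A1 varied apart from most of them. After the mean of the 15 arrays of the same time was subtracted, the 15 pairs of metallothioneins had Pearson correlations of 0.57 to 0.80 over the 30 arrays, which share the exposure groups and, for these probe sets, related probe sequence. SLC30A1 correlated with them at between 0.01 (MT1G) and 0.56 (MT1X), and with MTF1 at -0.31. The genes most like the mean of the 6 metallothioneins, by the same measure and leaving out the members, were LAGE3 (0.81), the metallothionein-like gene MT1HL1 (0.81), HLA-F (0.77), HLA-C (0.74) and MYBL2 (0.72), and 2.05% of all genes exceeded 0.5. Those most like SLC30A1 were MAP7 (0.89), MAP4K4 (0.89), PRPS2 (0.88), EBAG9 (0.88) and CNDP2 (0.87), and 9.32% of all genes exceeded 0.5. These correlations are descriptions over arrays that share exposures.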

How the data were processed

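RNA of 30 cultures was measured on Affymetrix 3-prime arrays. The authors deposited RMA-processed intensities on the log2 scale, per the submitters' processing notes (no version given), and no further normalization was applied. Of 22277 probe sets, 62 were control features, 19064 matched 1 gene, 1043 several and 2108 none. Probe sets of 1 gene that exceeded the 25th percentile on 3 or more arrays were kept (15309), and each gene was represented by its brightest kept probe set on average (10050 genes). Limma 3.58.1 in R 4.3.3 was fitted to 10 group means over all arrays (20 residual degrees of freedom), two-sided, with Benjamini-Hochberg adjustment within each of 21 comparisons and a threshold of 0.05. Errors of differences are standard errors of the fit. Unadjusted p values under 0.05 were counted for the members only, so no share of all genes stands beside those counts. Alternatives covered normalization, filters, fitted samples, prior, weights, replicate block, probe set choice and left-out arrays. Arrays give no read depth, and their number limits the precision. All 9 members, all their probe sets, the called genes of the lists (up to 3 per list and direction at 100 µg/ml and 24 h) and the 5 genes most alike were named; the importers and exporters named beside them were chosen after their values were seen. The members and the gene lists were chosen with earlier results of these data known.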

Additional observations from a re-analysis of the deposited data

Results flagged for a closer look

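The SLC30A1 response to 100 µg/ml TiO2-NB differed between 24 h and 1 h by -0.89 ± 0.25 log2 units (limma interaction, adjusted p = 0.01829), from a difference against control of 0.02 at 1 h to one of -0.87 at 24 h. It was singled out among the members because the difference between the responses itself passed the test, as it did for 16.3% of all genes. At 24 h all 3 exposed arrays were below all 3 controls, in a comparison where 33.3% of all genes had arrays that did not overlap. Without replicate 2 of the 24 h TiO2-NB arrays the adjusted p was 0.05921. Groups of 3 arrays are too small to single out an outlying array by a gap test.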

How the results depend on the processing

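Of the 21 comparisons, 17 kept a similar count of called members under every alternative run, and none of the 16 member differences called in any setting changed direction. Uncalled differences near 0 did change sign, as for SLC30A1 with 100 µg/ml MWCNT against control at 24 h (-0.32 to 0.08). With MWCNT against TiO2-NB at 100 µg/ml and 24 h, 3 members were called, 1 after median centring, 0 when only the groups compared were fitted, and 1 to 3 when single arrays were left out. With 100 against 10 µg/ml MWCNT at 24 h, 0 became 2 with array weights. With 100 against 10 µg/ml TiO2-NB at 24 h, 1 became 0 when only the groups compared were fitted. For the TiO2-NB response at 24 h against 1 h, the count was 0 to 1 with single arrays left out. In the control comparison over time, 6 to 8 members were called with single arrays left out. The share of all genes called under each alternative is not given beside these counts or those of the replicate block below. A changed count is therefore not a result about the members alone. The cause of the changes was not tested, except that fewer arrays leave fewer degrees of freedom. Median centring moved group means by -0.03 to 0.04, less than 1 SD for all 80 member levels, and changed the order of some overlapping groups of MT1H, MT2A and MTF1.

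The replicate numbers were not taken as pairs, and the labels do not say whether equal numbers share a day or a batch. Of 60 same-numbered pairs of arrays 38 correlated above 0.1 and 21 below 0, with r from -0.53 to 0.73. Of 30 arrays, 18 correlated best with an array of their own number. The values expected without pairing were not computed, so whether equal numbers belong together was not tested. With the replicate block, over all groups or within time, 7 members were called between the control times, 3 between the materials and 1 for TiO2-NB against control at 100 µg/ml and 24 h, as without it. Signal limits MT1M, which lay below the filter on every array.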
